A study of Rattus norvegicus with 6 samples.

Results

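The dermal matrix genes described here are the fibrillar collagen genes Col1a1, Col1a2 and Col3a1 and the matrix genes Sparc, Fn1, Dcn, Lum and Lox. They were taken by their Ensembl rat identifiers, 8 of the 33692 features in the count tables, which hold no gene symbols, so the symbols are those of the selection. The collagens are ENSRNOG00000003897 (Col1a1), ENSRNOG00000011292 (Col1a2) and ENSRNOG00000003357 (Col3a1). Sparc is ENSRNOG00000012840, Fn1 is ENSRNOG00000014288, Dcn is ENSRNOG00000004554, Lum is ENSRNOG00000004610 and Lox is ENSRNOG00000014426. All 8 passed the filter on low counts, which kept 15497 features. Whole back skin of rats (Rattus norvegicus) given vehicle (3 libraries) or afatinib (3 libraries) was profiled by RNA sequencing of total RNA. Afatinib binds covalently to, and blocks, receptor tyrosine kinases of the ErbB family, among them the epidermal growth factor receptor (EGFR), and drugs of this class often cause a rash. The sources used here do not give strain, sex, age, dose, route or time of treatment, nor do they state that each library came from its own animal, so p-values measure the spread between these libraries, which may be partly technical.

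The dermis is built by fibroblasts. The products of Col1a1 and Col1a2 assemble into type I collagen and that of Col3a1 into type III collagen, which together form the banded fibrils that give skin its tensile strength. Sparc encodes a secreted glycoprotein that binds collagen and takes part in its deposition, Fn1 encodes fibronectin, an adhesive glycoprotein of provisional and mature matrix, and Lox encodes lysyl oxidase, the enzyme that starts the covalent cross-linking of collagen and elastin. Decorin (Dcn) and lumican (Lum) are small leucine-rich proteoglycans that bind collagen fibrils and regulate their diameter and spacing.

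The RefSeq table of promoters (assembly GRCr8, 250 bases before to 50 bases after an annotated start) held 3 of the 8 genes, Col1a2, Sparc and Lum. They are shown as the promoters at hand of a collagen gene, of a collagen-binding gene whose afatinib libraries came in the same order, and of a proteoglycan gene whose afatinib libraries did not. Capitals mark CCAAT and TATAAA on either strand (CCAAT reads ATTGG on the other), and GGGCGG and TGANTCA were also searched on both strands. No searched motif overlapped another in these windows. The windows lie at chr4:33518307-33518606 (plus strand), chr10:40038767-40039066 (minus strand) and chr7:34245456-34245755 (plus strand), and each is written 5′ to 3′ in the direction of the gene.
Col1a2: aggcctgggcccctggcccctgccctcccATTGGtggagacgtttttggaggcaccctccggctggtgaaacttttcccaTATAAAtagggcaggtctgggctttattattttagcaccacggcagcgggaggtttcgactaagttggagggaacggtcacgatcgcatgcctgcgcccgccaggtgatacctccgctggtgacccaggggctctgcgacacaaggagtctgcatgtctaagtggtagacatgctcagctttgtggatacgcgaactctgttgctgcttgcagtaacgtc
Sparc: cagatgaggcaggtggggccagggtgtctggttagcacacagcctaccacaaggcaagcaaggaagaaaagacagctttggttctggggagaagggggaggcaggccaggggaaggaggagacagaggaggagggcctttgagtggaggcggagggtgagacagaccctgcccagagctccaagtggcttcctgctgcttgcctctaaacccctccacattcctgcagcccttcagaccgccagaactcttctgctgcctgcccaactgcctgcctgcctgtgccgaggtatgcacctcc
Lum: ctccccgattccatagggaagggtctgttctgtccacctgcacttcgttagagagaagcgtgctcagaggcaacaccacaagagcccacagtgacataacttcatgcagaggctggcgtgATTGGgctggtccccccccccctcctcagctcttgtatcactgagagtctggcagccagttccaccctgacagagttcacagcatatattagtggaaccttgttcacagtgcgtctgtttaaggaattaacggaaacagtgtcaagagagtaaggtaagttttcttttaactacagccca
The Col1a2 window held 1 CCAAT match on the opposite strand, beginning 221 bases before the annotated start, and 1 TATAAA match, 170 bases before it. The Lum window held 1 CCAAT match on the opposite strand, 130 bases before the start. No letters of the 4 motifs were found in the Sparc window. Of 33469 rat promoters of this length, 37.5% held CCAAT, 14.2% TATAAA, 33.1% GGGCGG and 7.33% TGANTCA. Such matches are descriptions of letters and not measured sites.

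Libraries held 15304166 to 18494281 counts. A count of 3 was worth 0.166 to 0.195 CPM (counts scaled to a common library size, here by the trimmed mean of M-values, TMM), far below every level given here. Such floors cover counting error only. Over the tested features, afatinib replicate 3 correlated more closely with vehicle replicates 1 and 3 (Pearson's r across features, which are not independent, 0.960 and 0.958) than with afatinib replicates 1 and 2 (0.907 and 0.944), and its value with vehicle replicate 2 was 0.943. Results are therefore also given without this library where it matters. Because it was singled out for its nearness to vehicle, leaving it out tends to widen differences between the groups. Calls made without it are therefore no independent support. Afatinib replicate 1 correlated least with vehicle replicates 1, 2 and 3 (0.895, 0.830 and 0.907), and results without it are given too. No list of markers could be matched to the tables, so the cell makeup of the skin pieces was not measured. In bulk skin, fewer fibroblasts and less RNA per fibroblast cannot be told apart. Of the 8 genes, 6 or 7 were among the 100 most abundant features of each library, as fits skin that contains dermis.

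The 8 genes fell on both sides of the vehicle level after afatinib, and none passed the test over all features. In edgeR's quasi-likelihood test with Benjamini-Hochberg adjustment, 0 of the 8 genes had an adjusted p under 0.05, beside 0% of the 15497 features tested. At an unadjusted p under 0.05 there was 1 of the 8, Lum, beside 19.5% of all features. Limma voom also called 0 of the 8 genes (0% of all features), with 1 at an unadjusted p under 0.05 beside 18.7% of all features, and DESeq2 called 1, Lum, beside 6.78% of the features for which it gave an adjusted p. The median log2 fold change of the 8 was 0.17, and that of all tested features was 0.00. The fitted value was above 0 for Fn1, Lum, Dcn and Lox and below 0 for Sparc, Col1a2, Col3a1 and Col1a1. That of Col1a1 lay so near 0 that its sign changed with RLE scaling (relative log expression, the median-ratio method), with total counts alone, with no filter and in DESeq2.

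**Figure D1:**
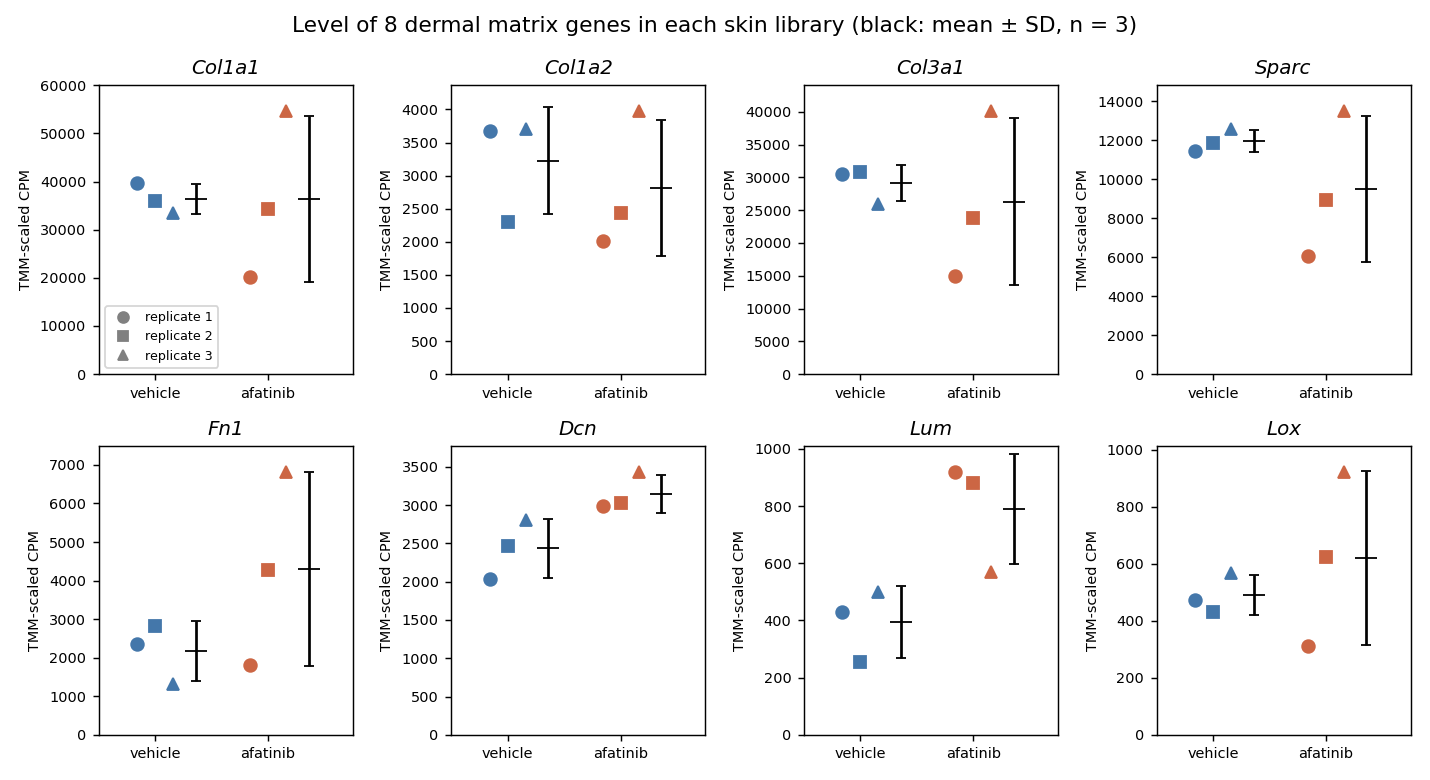
TMM-scaled CPM (vertical axes, from 0) of the 8 genes in each library, with vehicle in blue and afatinib in orange, 1 marker shape per replicate number, and the mean ± SD of 3 libraries in black. Dcn and Lum are the genes in which the afatinib libraries lie above all vehicle libraries, while afatinib replicates 1 and 3 lie on opposite sides of the vehicle libraries for Col1a1, Col1a2, Col3a1, Sparc and Lox.

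The proteoglycan genes were the members whose groups did not overlap. Lum had 429.8, 253.5 and 497.8 CPM (TMM-scaled) in vehicle replicates 1, 2 and 3, and 919.2, 880.3 and 570.0 CPM in afatinib replicates 1, 2 and 3. Every afatinib library lay above every vehicle library, with afatinib replicate 3 closest to vehicle. The means were 393.7 ± 126.1 CPM in vehicle and 789.8 ± 191.4 CPM in afatinib (SD, n = 3 each). The log2 fold change in edgeR's quasi-likelihood test was 1.00 (SE 0.32, 95% confidence interval 0.23 to 1.78, unadjusted p = 0.0186, adjusted p = 0.207), a 2.01-fold higher level.

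The Lum result depended on the test and on the libraries. DESeq2 gave an adjusted p of 0.0403 for Lum, and over 21 alternative settings its adjusted p ran from 0.00137 to 0.458. The DESeq2 call was lost without vehicle replicate 1 (adjusted p = 0.152), vehicle replicate 2 (0.155), afatinib replicate 1 (0.200) or afatinib replicate 2 (0.246), and kept without vehicle replicate 3 (0.0327) or afatinib replicate 3 (0.00137). In edgeR's test without afatinib replicate 3 the log2 fold change of Lum was 1.19 (adjusted p = 0.0572). It was positive in each of the 21 settings, between 0.76 and 1.22.

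Dcn had 2032, 2472 and 2799 CPM (TMM-scaled) in the vehicle libraries and 2987, 3021 and 3432 CPM in the afatinib libraries. Here too all 3 afatinib libraries lay above the vehicle libraries, by a narrow margin between vehicle replicate 3 and afatinib replicate 1. With upper quartile scaling the order of those libraries turned and the groups overlapped (highest vehicle 2854 CPM, lowest afatinib 2836 CPM). The means were 2434 ± 385 CPM and 3147 ± 247 CPM (SD, n = 3 each), and the log2 fold change was 0.37 (SE 0.23, 95% confidence interval -0.19 to 0.93, adjusted p = 0.389 in edgeR's quasi-likelihood test). Over the 21 alternatives it stayed between 0.25 and 0.49, and the lowest adjusted p was 0.124.

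Among all tested features, 12.9% had every afatinib library above every vehicle library and 13.2% the opposite, against 2 and 0 of the 8 genes. Two-sided exact permutation tests of the CPM gave p = 0.1 for Dcn and for Lum, which is the smallest p that 3 against 3 libraries allow. Dcn and Lum lie next to each other among the protein-coding genes of the GRCr8 annotation. Their log2 ratio of Dcn to Lum counts was 2.24, 3.29 and 2.49 in the vehicle libraries and 1.70, 1.78 and 2.59 in the afatinib libraries, so the groups overlapped through afatinib replicate 3.

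The fibrillar collagen genes differed more between the afatinib libraries than between the groups. Col1a1 had 39746, 35977 and 33473 CPM (TMM-scaled) in the vehicle libraries and 20168, 34323 and 54622 CPM in the afatinib libraries. Afatinib replicate 1 lay below and afatinib replicate 3 above all vehicle libraries, with afatinib replicate 2 among them. The group means were nearly equal, 36399 ± 3158 CPM and 36371 ± 17318 CPM (SD, n = 3 each). The log2 fold change of 0.00 had an SE of 0.46 and a 95% confidence interval from -1.10 to 1.09 (adjusted p = 0.999 in edgeR's quasi-likelihood test).

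The afatinib libraries came in the same order for Col3a1 as for Col1a1. It had 30531, 30851 and 25924 CPM in the vehicle libraries and 15006, 23870 and 40090 CPM in the afatinib libraries. Afatinib replicates 1 and 2 were both below the vehicle libraries and afatinib replicate 3 above them. The log2 fold change was -0.14 (SE 0.45, 95% confidence interval -1.22 to 0.93, adjusted p = 0.863 in edgeR's quasi-likelihood test).

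Col1a2 had 3676, 2299 and 3704 CPM in the vehicle libraries and 2015, 2440 and 3973 CPM in the afatinib libraries. The vehicle libraries were themselves spread here, with vehicle replicate 2 near the lower afatinib libraries. The log2 fold change was -0.20 (SE 0.36, 95% confidence interval -1.05 to 0.66, adjusted p = 0.761 in edgeR's quasi-likelihood test). The exact permutation p was 1 for Col1a1, 0.7 for Col3a1 and 0.8 for Col1a2.

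Sparc was the lowest of the 8 genes by fitted difference. It had 11460, 11858 and 12566 CPM (TMM-scaled) in the vehicle libraries, the narrowest spread of the 8, and 6058, 8906 and 13477 CPM in the afatinib libraries. As for Col3a1, afatinib replicates 1 and 2 were below and afatinib replicate 3 above the vehicle libraries. The means were 11962 ± 560 CPM and 9480 ± 3743 CPM (SD, n = 3 each). Its log2 fold change was -0.34 (SE 0.37, 95% confidence interval -1.22 to 0.55, adjusted p = 0.609 in edgeR's quasi-likelihood test).

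Fn1 had 2363, 2825 and 1316 CPM (TMM-scaled) in the vehicle libraries and 1807, 4284 and 6817 CPM in the afatinib libraries. Afatinib replicates 2 and 3 lay above all vehicle libraries, and afatinib replicate 1 within their range. The means were 2168 ± 773 CPM and 4303 ± 2505 CPM (SD, n = 3 each). The log2 fold change of 0.99 (1.98-fold) had an SE of 0.54, the largest of the 8, and an interval from -0.31 to 2.28 (adjusted p = 0.335 in edgeR's quasi-likelihood test). DESeq2 called Fn1 only when afatinib replicate 1 was left out (adjusted p = 0.0347), beside 2.17% of the features for which it gave an adjusted p. Leaving out the afatinib library that lay within the vehicle range widens the difference in Fn1, so this call is no independent support. Over the 21 alternatives the adjusted p of 0.0347 was the lowest for Fn1, and the highest was 0.542.

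Lox had 472.1, 430.9 and 566.0 CPM (TMM-scaled) in the vehicle libraries and 312.1, 622.0 and 921.5 CPM in the afatinib libraries. Afatinib replicate 1 was again below the vehicle libraries, and afatinib replicates 2 and 3 were above them. The log2 fold change was 0.34 (SE 0.39, 95% confidence interval -0.60 to 1.27, adjusted p = 0.629 in edgeR's quasi-likelihood test). The exact permutation p was 0.4 for Sparc, 0.3 for Fn1 and 0.6 for Lox.

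**Figure D2:**
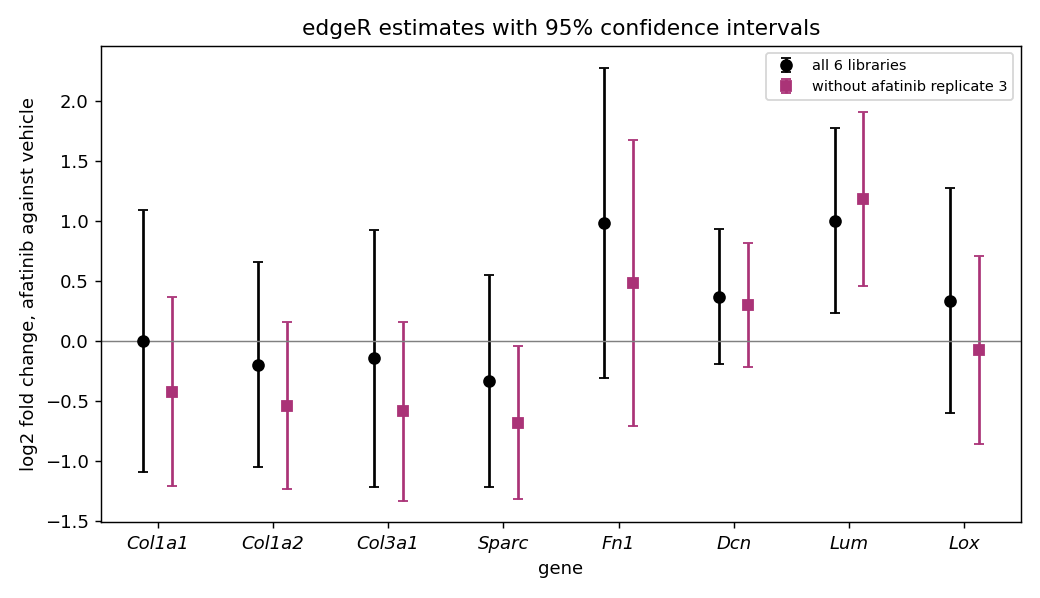
Log2 fold change of afatinib against vehicle (vertical axis) for each gene by edgeR, with 95% confidence intervals, from all 6 libraries (black circles) and without afatinib replicate 3 (purple squares). With all libraries the interval of Lum alone, from 0.23 to 1.78, does not include 0, and without afatinib replicate 3 those of Lum and Sparc do not. Afatinib replicate 3 was left out for its nearness to the vehicle libraries, which tends to widen differences between the groups.

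Leaving out afatinib replicate 3 moved every gene but Lum downwards, and Dcn the least (log2 fold change from 0.37 to 0.30). Without it, the log2 fold change was -0.42 for Col1a1, -0.54 for Col1a2, -0.59 for Col3a1 and -0.68 for Sparc. That of Lox was -0.07, and that of Fn1 was 0.48 (1.40-fold, against 1.98-fold with all libraries). None of these had an adjusted p under 0.05 in edgeR's quasi-likelihood test, where that of Sparc was 0.133, and 0 of the 8 genes were called while 10.2% of the 16014 features tested were. At an unadjusted p under 0.05 there were 2 of the 8, Sparc and Lum, beside 33.2% of all features. DESeq2 without this library called 2 of the 8, Sparc (log2 fold change -0.67, adjusted p = 0.0106) and Lum. It called 25% of the features for which it gave an adjusted p. Over the 21 alternatives the adjusted p of 0.0106 was the lowest for Sparc, and the highest was 0.919. Calls without afatinib replicate 3 carry the bias of leaving out a library for its nearness to vehicle.

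Leaving out afatinib replicate 1 moved the same genes the other way. Without it, the log2 fold change was 0.29 for Col1a1, 0.14 for Col3a1, 0.66 for Lox and 1.36 for Fn1, and -0.01 for Col1a2 and -0.09 for Sparc. The sign of Col3a1 turned when this library was left out, and that of Lox when afatinib replicate 3 was. That of Col1a1, near 0 with all libraries, also turned without vehicle replicate 1 (0.06) or afatinib replicate 2 (0.04). Fn1, Dcn and Lum stayed above 0 in both cases. Without afatinib replicate 1 the log2 fold change was 0.41 for Dcn and 0.88 for Lum, which moved downwards.

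The 8 genes also differed in how far the afatinib libraries spread. The highest afatinib library exceeded the lowest by 2.71-fold for Col1a1, 1.97-fold for Col1a2, 2.67-fold for Col3a1, 2.22-fold for Sparc, 3.77-fold for Fn1 and 2.95-fold for Lox. For Dcn it was 1.15-fold and for Lum 1.61-fold. The spread was at least 2-fold in 5 of the 8 genes among afatinib libraries, where 27.9% of all tested features spread as far, and in 1 of the 8, Fn1, among vehicle libraries, where 19.0% did. The median SD of log2 CPM over the 8 genes was 0.22 in vehicle and 0.64 in afatinib libraries, and over all tested features it was 0.22 and 0.30. The SD was larger in afatinib than in vehicle libraries for 6 of the 8, beside 61.9% of all features, the exceptions being Dcn and Lum. Whether the spreads of the groups differ was not tested.

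Afatinib replicate 3 held the highest TMM-scaled level of the 6 libraries for 7 of the 8 genes, all but Lum, and was the highest library for 13.5% of all tested features. Afatinib replicate 1 held the lowest level for 5 of the 8, Col1a1, Col1a2, Col3a1, Sparc and Lox, and was lowest for 27.1% of all features. With total counts alone as the scale these numbers were 4 and 4 of the 8, beside 6.61% and 19.5% of all features. Afatinib replicate 3 was then the highest library for Col1a1, Col3a1, Fn1 and Lox only. Afatinib replicate 3 lay near the vehicle libraries across the transcriptome. Its levels of Col1a1, Col3a1, Fn1, Dcn, Lum and Lox lay above all of them on each of the 5 scales tried. Those of Col1a2 and Sparc did not with total counts alone.

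The 8 genes together held a large part of each library. Their summed share of the counts was 8.74%, 7.89% and 8.09% in the vehicle libraries and 5.45%, 8.71% and 11.3% in the afatinib libraries. The vehicle libraries lay within 1 percentage point of each other, and the afatinib libraries lay below, among and above them. The means were 8.24% ± 0.447 and 8.50% ± 2.94 (SD, n = 3 each), a difference of 0.254 percentage points that was far within the spread between libraries. The 3 fibrillar collagens made up most of it, with 7.13%, 6.27% and 6.31% in vehicle and 4.12%, 6.74% and 9.02% in afatinib libraries.

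**Figure D3:**
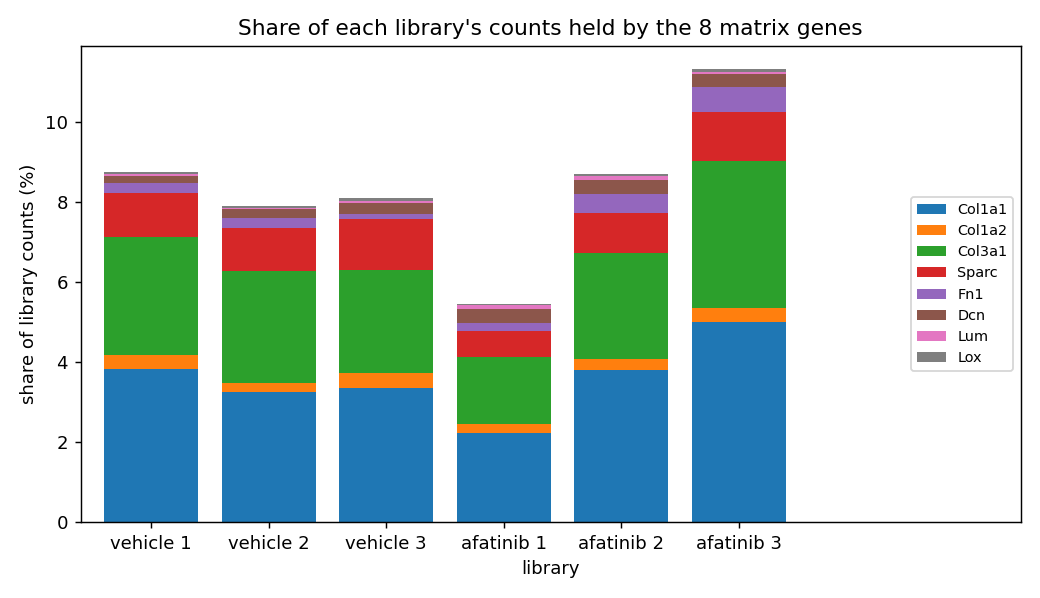
Share of each library's counts in percent (vertical axis, from 0) held by the 8 genes, stacked by gene, for the 6 libraries. The stacks of the vehicle libraries reach between 7.89% and 8.74%, and those of the afatinib libraries 5.45%, 8.71% and 11.3%, with Col1a1 and Col3a1 as the thickest layers.

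Col1a1 was the most abundant feature by counts in every library. Col3a1 ranked between the 2nd and the 4th place and Sparc at the 6th, or at the 8th in vehicle replicate 2. Fn1 ranked 39, 38 and 66 in the vehicle libraries and 37, 10 and 14 in the afatinib libraries, entering the 10 most abundant features in afatinib replicate 2. Lum ranked 272, 512 and 209 in the vehicle libraries and 86, 84 and 175 in the afatinib libraries. Ranks by counts depend on transcript length, so they compare a gene across libraries and not genes with each other.

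Of the counts in the 10 most abundant features, those matrix genes among them held 7.88%, 7.14% and 7.20% of the vehicle libraries and 4.56%, 7.93% and 9.89% of the afatinib libraries. The other features of these top 10 held 10.4%, 11.3% and 9.04% in vehicle and 6.02%, 5.88% and 10.7% in afatinib libraries. These other features numbered 7 in each library except afatinib replicate 2, where Fn1 joined the matrix genes of the top 10 and they numbered 6. In afatinib replicate 3 the 7 other abundant features were within the vehicle range and the matrix genes above it.

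Ratios of counts within a library do not depend on how libraries are scaled, and 8 pairs were examined as values with no test. The log2 ratio of Col3a1 to Col1a1 was -0.38, -0.22 and -0.37 in the vehicle libraries and -0.43, -0.52 and -0.45 in the afatinib libraries. All afatinib values were lower, with means of -0.32 ± 0.09 and -0.47 ± 0.05 (SD, n = 3 each), a difference of -0.14 on the log2 scale. This ratio moved over 0.30 in all 6 libraries, although afatinib replicates 1 and 3 differed by 2.67-fold in Col3a1 itself. Against Col1a2, the other type I collagen gene here, the log2 ratio of Col3a1 moved over 0.94. There the groups overlapped, with a mean difference of -0.03.

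The log2 ratio of Col1a1 to Fn1 was 4.07, 3.67 and 4.67 in the vehicle libraries and 3.480, 3.002 and 3.002 in the afatinib libraries. Every afatinib library thus had fewer Col1a1 counts per Fn1 count than every vehicle library, also afatinib replicate 1, in which Col1a1 was below and Fn1 within the vehicle range. The mean difference was -0.98, and it lay between -1.21 and -0.71 with 1 library left out at a time. Of the level and the ratio of Fn1, the ratio was the one without overlap between groups. For comparison, the levels of 26.2% of all tested features had no overlap between the groups. Ratios of other pairs of features were not examined, so neither separated ratio can be called particular to these genes.

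The other pairs overlapped between the groups. The mean log2 ratio differed by 0.11 for Col1a1 to Col1a2, by -0.03 for Col3a1 to Col1a2, by 0.30 for Col1a1 to Sparc, by -0.33 for Col1a1 to Lox, by -0.49 for Col1a1 to Dcn and by -0.65 for Dcn to Lum. The ratio of Col1a1 to Dcn was widest among these afatinib libraries, at 2.76, 3.51 and 3.99. The Col1a1 to Lox ratio stayed between 5.79 and 6.01 in the afatinib libraries, although each gene varied over 2-fold there.

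**Figure D4:**
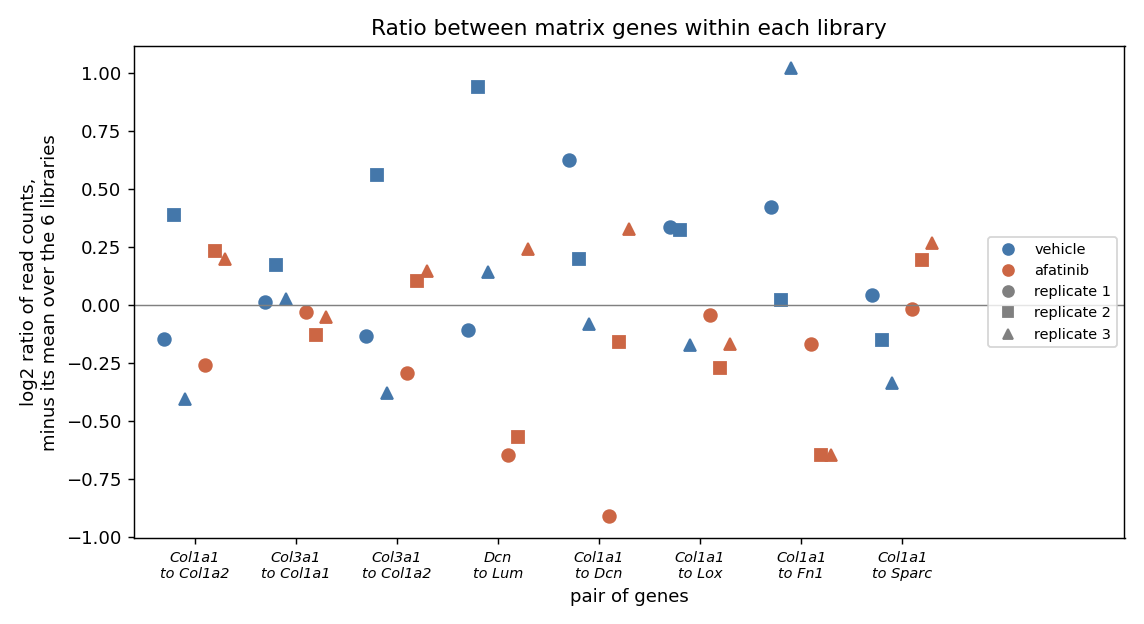
Log2 ratio of read counts for 8 pairs of genes, each minus its mean over the 6 libraries (vertical axis), with vehicle in blue, afatinib in orange and 1 marker shape per replicate number. The groups are apart for Col3a1 to Col1a1 (mean difference -0.14) and for Col1a1 to Fn1 (mean difference -0.98), and overlap for the other pairs. For comparison, the levels of 26.2% of all tested features have no overlap between the groups.

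Among 11658 other features with a mean of at least 5 CPM, those 2 most like the mean pattern of the 8 genes were ENSRNOG00000018830 and ENSRNOG00000005589, which the tables do not pair with a gene name. Their log2 CPM had a Pearson correlation of 0.983 and 0.982 with that pattern over the 6 libraries, as a description of features picked for this value. ENSRNOG00000018830 had 15.0, 10.7 and 15.1 CPM in vehicle and 8.86, 16.5 and 29.7 CPM in afatinib libraries. ENSRNOG00000005589 had 64.1, 60.7 and 74.2 CPM in vehicle and 40.9, 86.2 and 131.9 CPM in afatinib libraries. Both were lowest of all libraries in afatinib replicate 1 and highest in afatinib replicate 3, as were Col1a1, Col1a2, Col3a1, Sparc and Lox. The mean pattern for which they were picked has the same lowest and highest library.

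In the GRCr8 annotation, Col1a1 overlaps Sgca, which encodes a sarcoglycan of muscle, Dcn overlaps a non-coding RNA and Lox overlaps a ribosomal protein pseudogene. The sources used here give neither the strand setting nor the build of the counting, so reads of such partners cannot be told apart from those of the 3 genes.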

How the data were processed

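RNA of 6 whole skin libraries was sequenced. The deposited values are raw read counts per feature, 1 table per library, as the authors made them. HISAT2 2.0.5, featureCounts 1.5.0-p3 and DESeq2 1.16.1 are named per the submitters' processing notes, without settings. The sources used here name no genome build or annotation. Samples were grouped and numbered by their titles, and the column headings number the afatinib libraries differently. The members and lists were chosen with earlier results of these data known.

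From the deposited counts, features were filtered with filterByExpr of edgeR 4.0.16 (R 4.3.3), scaled by TMM and tested for group with its robust quasi-likelihood test. Benjamini-Hochberg adjustment ran over all tested features, with a threshold of 0.05. The SE is the log2 fold change divided by the square root of the F statistic, and confidence intervals (95%) use the test's degrees of freedom. CPM used TMM-scaled library sizes, and log2 CPM a prior count of 2. Alternatives were RLE and upper quartile scaling, TMM factors without the 8 genes, other filters, DESeq2 1.42.0, limma 3.58.1 with voom, a replicate block and each library left out. Scaling by total counts and DESeq2 without each library were chosen after seeing the data. Scripts were tested on simulated data.

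The rule for named genes took the 8 genes and the 2 features most like their mean pattern. The 14 lists of pathway genes and cell type markers could not be measured, because 0 features matched the 47357 genes of the reference table by identifier.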

Additional observations from a re-analysis of the deposited data

How the results depend on the processing

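No feature passed an adjusted p of 0.05 in edgeR with RLE or upper quartile scaling, TMM factors without the 8 genes, total counts alone, no filter, a filter of 5 CPM in 3 libraries or the replicate block, or in limma voom (0 of the 8 genes in each). DESeq2 called 1032 features and 1 of the 8 genes. With 1 library left out, edgeR called between 0 and 1627 features, the latter without afatinib replicate 3 (51 without vehicle replicate 2 and 1 without vehicle replicate 1), and 0 of the 8 genes. DESeq2 with 1 library left out called 270 to 4085 features and 0 to 2 of the 8 genes. The extremes were without afatinib replicates 2 and 3. It called 399, 490 and 744 features without vehicle replicates 1, 2 and 3, and 336 without afatinib replicate 1. Of the 8 genes it called Lum alone without vehicle replicate 3, beside 4.94% of the features with an adjusted p. Without afatinib replicate 1 it called Fn1 alone, beside 2.17%.

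The sign of Col1a1 turned to 0.0092 with RLE scaling, 0.00072 with no filter, 0.0106 in DESeq2 and 0.0756 with total counts alone. With 1 library left out, the log2 fold change ranged in edgeR from -0.42 to 0.29 for Col1a1, -0.59 to 0.14 for Col3a1 and -0.0730 to 0.66 for Lox. In DESeq2 that of Col1a1 was 0.0739 without vehicle replicate 1, 0.0044 without vehicle replicate 2, 0.30 without afatinib replicate 1 and 0.0531 without afatinib replicate 2. It also turned for Col1a2 to 0.0024 and Col3a1 to 0.15 without afatinib replicate 1, and for Lox to -0.0619 without afatinib replicate 3. The signs of Sparc, Fn1, Dcn and Lum held in all 21 alternatives. For Lum, and for Dcn except with upper quartile scaling, this restates that the groups did not overlap. The summed share differed by -1.16 to 1.78 percentage points with 1 library left out, and its sign turned without afatinib replicate 3. Those extremes were smaller than the SD of the afatinib libraries (2.94) and larger than that of the vehicle libraries (0.447). Without the 100 most abundant other features in the denominator the sign also turned, to -0.303 (SD 0.554 in vehicle and 4.69 in afatinib libraries). Without the collagens the difference was 0.201 (SD 0.0912 in vehicle and 0.492 in afatinib libraries). The differences in log2 ratio kept their sign with any library left out, except for Col1a1 to Col1a2 (-0.06 to 0.33) and Col3a1 to Col1a2 (-0.23 to 0.24).

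Libraries with the same replicate number did not deviate together, with correlations over features of 0.20, -0.21 and -0.39 for numbers 1, 2 and 3. With the replicate block, edgeR called 0 features and 0 of the 8 genes, and Lum had a log2 fold change of 1.03 (adjusted p = 0.372). Total counts alone moved the median log2 fold change of all features to 0.12. Each of the 8 genes had at least 4020 counts in every library, so counting error was small beside the spread between libraries.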
